A study of Mus musculus with 6 samples.

Results

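The miR-29 family comprises miR-29a, miR-29b and miR-29c, which were taken by name from the 596 mouse miRNA assays of a real-time PCR array, without the star strands. All 3 members had a row in the table and were detected in every sample. The family was measured in whole aortas of 3 EC-Dicerflox and 3 EC-DicerWT mice. EC-Dicerflox mice had the genotype VE-Cadherin-CreERT2 Dicer1 flox/flox Apoe-/- and EC-DicerWT littermates VE-Cadherin-CreERT2 Dicer1 WT/WT Apoe-/-. Both groups thus carried the inducible Cre recombinase, driven by the endothelial VE-Cadherin (Cdh5) promoter, and both lacked apolipoprotein E. Both received tamoxifen (2 mg per 20 g of body weight) daily for 5 days and, at an age of 6 to 8 weeks, were put on a high-fat diet for 4 weeks. The labels give the mice as male and the study's methods as female. Dicer1 mRNA was not analysed here.

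Dicer is the RNase that cuts hairpin precursors into mature miRNAs. The miR-29 family is known in fibrosis and in the vessel wall for repressing mRNAs of the extracellular matrix, among them those of fibrillar collagens, elastin and fibrillin, and its members are made by fibroblasts and smooth muscle cells as well as by endothelial cells (ECs). The deletion was directed at ECs, whereas RNA came from the whole aorta. A change in the number of cells of one type and a change in RNA per cell cannot be told apart in these samples.

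The mature sequences show what the 3 assays have in common and where they differ. They were taken from RefSeq (GRCm38.p6), in which the table's miR-29a, miR-29b and miR-29c correspond to the 3p strands, and capitals mark the seed (bases 2 to 8), which pairs with target mRNAs.
miR-29a: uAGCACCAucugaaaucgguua
miR-29b: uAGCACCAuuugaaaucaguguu
miR-29c: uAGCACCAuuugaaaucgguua
The seed was identical in all 3, and among 1679 mature mouse miRNA names of the RefSeq table no other miRNA carried it. With positions counted from 1 at the 5′ end, miR-29a and miR-29c differed only by C10U (miR-29a first), were identical at 21 of 22 positions and shared their last 12 bases. From miR-29a to miR-29b the differences were C10U, G18A, U21G and A22U, and from miR-29b to miR-29c they were A18G, G21U and U22A. MiR-29b is 1 base longer than the others. The table holds no measurement of how far the miR-29a assay responds to miR-29c or the reverse.

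The family is encoded by 4 hairpins at 2 loci. Mature miR-29a lies at chr6:31062673-31062694 on the minus strand in the hairpin gene Mir29a, and 275 bases separate Mir29a from Mir29b-1, which holds a first copy of miR-29b (chr6:31063025-31063047, minus strand). The other copy of miR-29b lies at chr1:195037091-195037113 on the plus strand in Mir29b-2, and 426 bases separate Mir29b-2 from Mir29c, which holds miR-29c (chr1:195037600-195037621, plus strand). Mir29b-2 and Mir29c overlap the long non-coding RNA gene A330023F24Rik, and Mir29a and Mir29b-1 overlap no other gene of the RefSeq table. Both copies of miR-29b are identical, so that the miR-29b assay cannot tell the loci apart. The arrays also carried miR-29b*, the strand from the opposite arm of a miR-29b hairpin. RefSeq lists a 5p strand for each of both hairpins, shown here because the assay name does not say which of them was measured.
miR-29b-1-5p: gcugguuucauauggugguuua
miR-29b-2-5p: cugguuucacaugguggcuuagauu

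The cycle threshold (CT) is the PCR cycle at which the signal of an assay crosses a threshold. Each additional cycle means less RNA, by up to 2-fold when every cycle doubles the product, and the table lists a CT of 40 where no signal was seen. EC-Dicerflox replicate 3 stood apart from the other samples. It had 375 miRNAs with a CT under 40, against 402 to 415 in the other samples, the highest median CT (28.2, against 26.4 to 27.5 over the 350 miRNAs detected in all 6 samples) and the highest CT of each of the 5 control RNAs, which in each case were next highest in EC-DicerWT replicate 3. MiRNAs of the cell types of the labelled tissue were detected. MiR-145 and miR-143, which are abundant in smooth muscle cells, had mean CT values of 14.8 and 17.4 in EC-Dicerflox and 14.9 and 17.4 in EC-DicerWT mice. Endothelial miR-126-3p had 18.1 and 18.3, and miR-126-5p 21.5 and 22.2. MiR-133a of striated muscle (19.2 and 19.2) and miR-150 of leukocytes (20.8 and 20.2) also had low CT values, so that these values do not identify the tissue.

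MiR-29a was among the assays with the lowest CT in the aorta. Its CT was 18.8, 18.4 and 20.0 in EC-Dicerflox replicates 1, 2 and 3, and 18.9, 19.0 and 19.8 in EC-DicerWT replicates 1, 2 and 3. By CT it ranked 17 to 20 among the 375 to 415 miRNAs detected in a sample. Replicate 3 had the highest CT in both groups, and the ranges of the groups overlapped before normalisation.

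MiR-29c came next. Its CT was 21.5, 21.2 and 24.0 in EC-Dicerflox and 21.5, 22.2 and 23.4 in EC-DicerWT mice, in the order of the replicates, which placed it at rank 56 to 76. MiR-29b had a CT of 25.5, 25.0 and 26.3 in EC-Dicerflox and of 25.3, 25.9 and 26.8 in EC-DicerWT mice, at rank 137 to 157. The order miR-29a, miR-29c, miR-29b held in each of the 6 samples, and the smallest gap between neighbours in that order (2.30 cycles) exceeded the SD of any member within a group (up to 1.54 cycles). This is an order of CT values and not of molecule numbers, because the efficiency of reverse transcription and pre-amplification differs between assays.

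**Figure D1:**
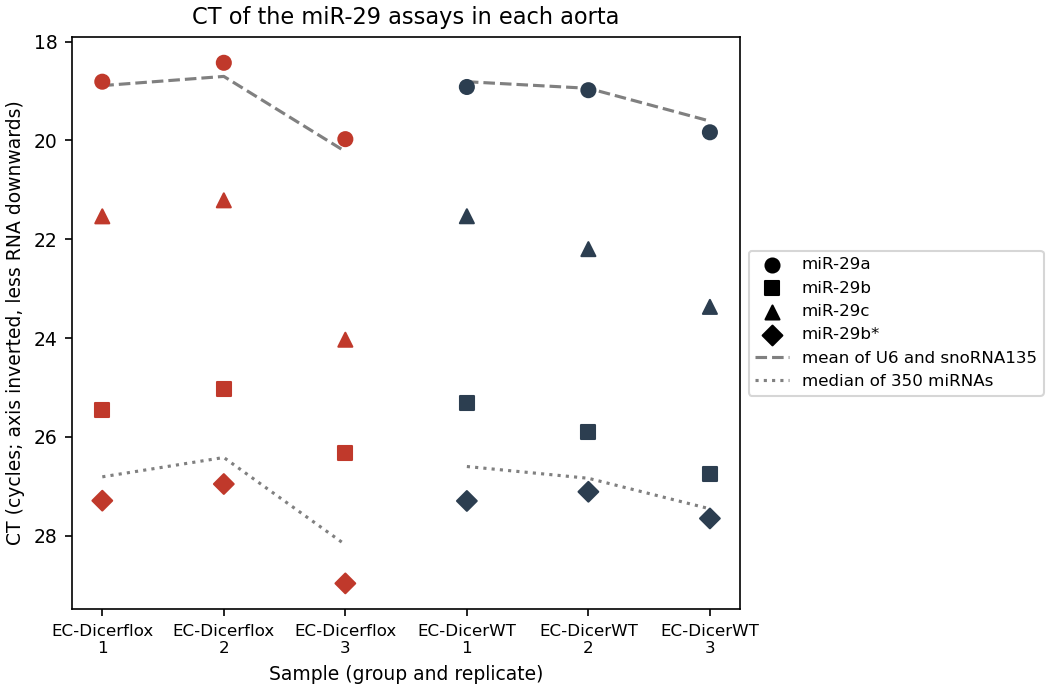
CT in cycles (vertical axis, inverted) of miR-29a, miR-29b, miR-29c and miR-29b* in each of the 6 samples (horizontal axis, red for EC-Dicerflox and dark blue for EC-DicerWT), with the mean of the control RNAs U6 and snoRNA135 (dashed) and the median of 350 miRNAs (dotted). MiR-29a runs close to the control RNAs in every sample, whereas miR-29c ranges from a CT of 21.2 to 24.0 within EC-Dicerflox and from 21.5 to 23.4 within EC-DicerWT mice.

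The comparison of the groups asked whether the loss of Dicer in ECs changed the level of the family in the aorta after 4 weeks of high-fat diet. No change was established for any member. The estimates of all 3 were higher in EC-Dicerflox than in EC-DicerWT mice, 0 of 3 had a limma p-value under 0.05 before adjustment (3.04% of the 461 miRNAs tested had one), and the groups were separate, with all EC-Dicerflox samples the higher, for miR-29a alone (6.07% of the 461). Levels are given as minus delta CT, which is the mean CT of U6 and snoRNA135 (4 values per sample) minus the CT of the miRNA, a log2 scale on which higher means more RNA. A log2 fold change is the difference of the group means of this level.

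MiR-29a had levels of 0.08, 0.28 and 0.25 in EC-Dicerflox and of -0.11, -0.04 and -0.23 in EC-DicerWT replicates 1, 2 and 3. All 3 EC-Dicerflox samples lay above every EC-DicerWT sample. The mean level of 0.20 ± 0.11 (SD, n = 3) against -0.12 ± 0.10 (SD, n = 3) gave a log2 fold change of 0.33 with a standard error of 0.23, or 1.25-fold with a 95% confidence interval of 0.845 to 1.86. The unadjusted limma p-value was 0.204 and the adjusted p-value 0.923 (two-sided exact permutation p = 0.1, below which 3 samples against 3 cannot go). Such a separation was seen in 28 of all 461 miRNAs (6.07%).

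MiR-29a was also one of the least variable miRNAs within the groups. Its residual SD of 0.101 log2 units was smaller than that of all but 0.571% of the 350 miRNAs detected in all samples, whose median was 0.481. The moderation by limma combined this spread with a prior estimated from all miRNAs, which gave miR-29a a larger standard error than its own spread alone. With an ordinary linear model for miR-29a alone the standard error was 0.083 and the unadjusted p-value 0.017 (adjusted p-value of 0.891 over the 461 miRNAs). In that model 10 of the 461 miRNAs were lower and 14 higher in EC-Dicerflox mice at an unadjusted p-value under 0.05. The spread was about as small with snoRNA202 alone (SD of 0.11 in EC-Dicerflox and 0.03 in EC-DicerWT mice), relative to the median of all miRNAs (0.12 and 0.12) and with U6 and snoRNA135 of the same card (0.16 and 0.11). It was larger relative to the mean of all miRNAs (0.26 and 0.13), with U6 alone (0.39 and 0.33) and with snoRNA135 alone (0.44 and 0.18), and with U6 or snoRNA135 alone the groups overlapped. They were separate with snoRNA202 alone, with U6 and snoRNA135 of the same card, and relative to the mean or the median of all miRNAs, settings in which 13, 21, 34 and 31 of the 461 miRNAs were separate with higher values in EC-Dicerflox mice.

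MiR-29b had the highest estimate of the family. Its levels were -6.56, -6.32 and -6.11 in EC-Dicerflox and -6.50, -6.96 and -7.14 in EC-DicerWT mice. The values of the groups overlapped, because EC-DicerWT replicate 1 lay above EC-Dicerflox replicate 1. The mean level of -6.33 ± 0.23 (SD, n = 3) against -6.87 ± 0.33 (SD, n = 3) gave a log2 fold change of 0.54 with a standard error of 0.29, or 1.45-fold with a 95% confidence interval of 0.868 to 2.43. The unadjusted limma p-value was 0.124 and the adjusted p-value 0.923 (two-sided exact permutation p = 0.2). Relative to the mean or the median of all miRNAs, all 3 EC-Dicerflox samples lay above every EC-DicerWT sample (two-sided exact permutation p = 0.1 in either case), as was so for 34 and 31 of the 461 miRNAs, more than the 28 with U6 and snoRNA135.

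MiR-29c varied most within the groups. Its levels were -2.65, -2.51 and -3.81 in EC-Dicerflox and -2.72, -3.26 and -3.76 in EC-DicerWT mice. Replicate 3 was the lowest in both groups, and EC-Dicerflox replicate 3 was the lowest of all samples. The mean level of -2.99 ± 0.71 (SD, n = 3) against -3.25 ± 0.52 (SD, n = 3) gave a log2 fold change of 0.26 with a standard error of 0.49, or 1.20-fold with a 95% confidence interval of 0.506 to 2.83. The unadjusted limma p-value was 0.620 and the adjusted p-value 0.923 (two-sided exact permutation p = 0.6). The size of this estimate rested on single samples. Without EC-Dicerflox replicate 3 it was 0.67, without EC-DicerWT replicate 1 it was 0.52, without EC-Dicerflox replicate 1 it was 0.088, without EC-Dicerflox replicate 2 it was 0.019, and without EC-DicerWT replicate 3 it was 0.0012. In the fit blocked by replicate number the standard error of miR-29c was 0.30 and the unadjusted p-value 0.446.

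**Figure D2:**
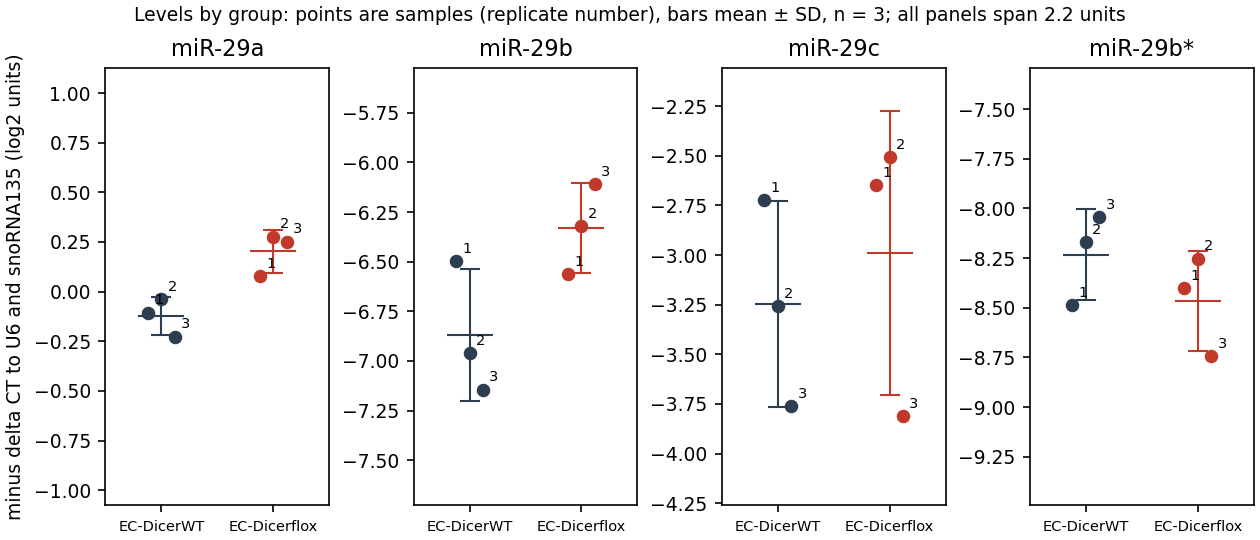
Minus delta CT to U6 and snoRNA135 in log2 units (vertical axis) of miR-29a, miR-29b, miR-29c and the opposite strand miR-29b* by group (horizontal axis), with points for samples labelled by replicate number and bars for mean ± SD (n = 3). MiR-29a is the one miRNA of the 4 with separate groups, and miR-29c shows the largest spread, with replicate 3 the lowest in both groups.

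Over the family, 0 of 3 members passed an unadjusted limma p-value of 0.05 in either direction, against 14 of 461 miRNAs (3.04%), of which 5 (1.08%) were higher in EC-Dicerflox mice. No miRNA of the 461 had an adjusted p-value under 0.05 (0%). The median log2 fold change of the 3 members was 0.33, and that of all 461 miRNAs was 0.082, with 251 estimates higher and 210 lower. The estimate of miR-29b exceeded that of 82.2% of the 461 miRNAs, the estimate of miR-29a that of 70.7% and the estimate of miR-29c that of 65.5%. Relative to the median of the 350 miRNAs detected in all samples (0.10), which takes out the choice of control RNA, miR-29a was at 0.22, miR-29b at 0.43 and miR-29c at 0.16. With snoRNA202 alone as the control RNA the estimates of miR-29a, miR-29b and miR-29c were 0.16, 0.38 and 0.097. The family mean per sample was -3.04, -2.85 and -3.22 in EC-Dicerflox and -3.11, -3.42 and -3.71 in EC-DicerWT mice, so that 2 of 3 EC-Dicerflox samples lay above every EC-DicerWT sample.

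**Figure D3:**
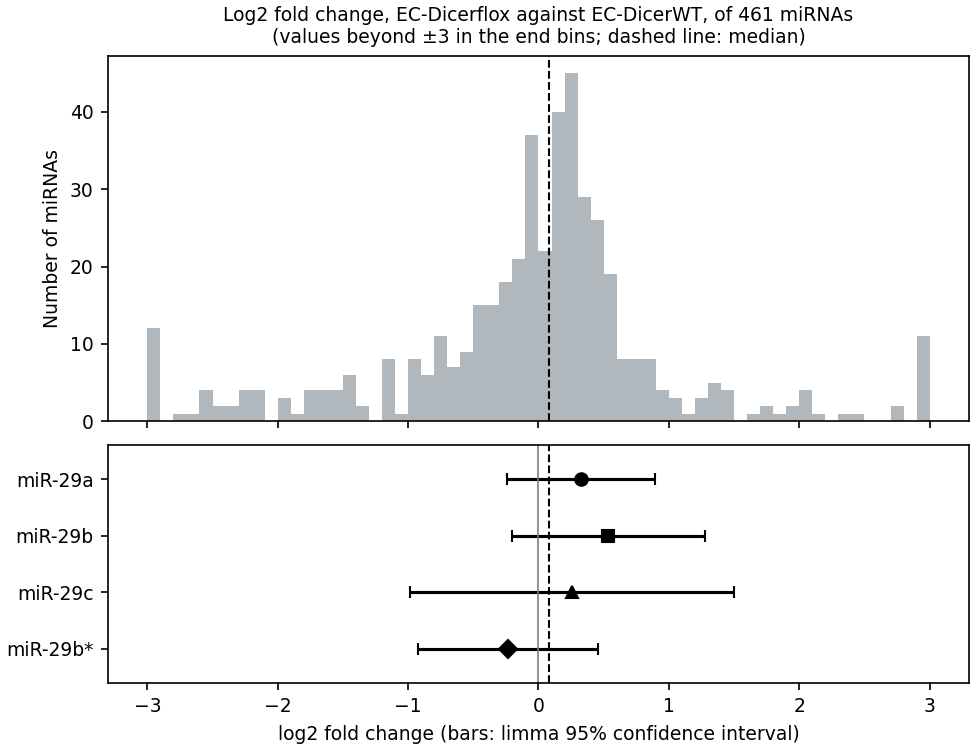
Upper panel, number of miRNAs (vertical axis) by log2 fold change of EC-Dicerflox against EC-DicerWT mice for all 461 miRNAs tested. Lower panel, estimates of miR-29a, miR-29b, miR-29c and miR-29b* with limma 95% confidence intervals. The 3 members lie at 0.33, 0.54 and 0.26, to the right of the median of 0.082 (dashed line), and all 4 intervals include 0.

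Samples with the same replicate number were set against each other as pairs, as a description, since neither source names a shared litter or day. Over 350 miRNAs the deviations of EC-Dicerflox 1 from its group mean correlated more with those of EC-DicerWT 2 (0.285) than of EC-DicerWT 1 (0.150). The differences within pairs did not run alike in the 3 members. For miR-29a they were 0.19, 0.31 and 0.48 log2 units in pairs 1, 2 and 3, higher in EC-Dicerflox mice in 3 of 3 pairs. For miR-29b the differences were -0.064, 0.64 and 1.04, higher in 2 of 3. For miR-29c they were 0.077, 0.75 and -0.049, higher in 2 of 3. Hence pair 3 had the highest difference for miR-29b and the lowest for miR-29c.

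By the style of their assay numbers, the members were taken to be on the same card. Their CT values were therefore compared with each other without any control RNA. MiR-29b minus miR-29a was 6.64, 6.60 and 6.36 cycles in EC-Dicerflox and 6.39, 6.92 and 6.92 cycles in EC-DicerWT replicates 1, 2 and 3. The means were 6.53 ± 0.152 (SD, n = 3) and 6.74 ± 0.305 cycles (SD, n = 3), which differed by -0.211 cycles (two-sided exact permutation p = 0.3, adjusted over 3 differences 0.9). This gap ranged over 0.563 cycles in the 6 samples. The difference between the groups was -0.387 cycles without EC-DicerWT replicate 1, -0.122 without EC-DicerWT replicate 2, -0.124 without EC-DicerWT replicate 3 and -0.124 without EC-Dicerflox replicate 3.

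MiR-29c minus miR-29a was less even. It was 2.73, 2.79 and 4.06 cycles in EC-Dicerflox and 2.62, 3.22 and 3.54 cycles in EC-DicerWT mice. The means of 3.19 ± 0.754 (SD, n = 3) and 3.12 ± 0.466 cycles (SD, n = 3) differed by 0.0673 cycles (two-sided exact permutation p = 0.8, adjusted 1). The gap between these miRNAs, whose sequences differ by a single base, ranged over 1.44 cycles and was widest in replicate 3 of both groups, the samples with the highest CT of the control RNAs. The part of sample quality in this gap was not tested.

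MiR-29b minus miR-29c was 3.92, 3.81 and 2.30 cycles in EC-Dicerflox and 3.78, 3.70 and 3.38 cycles in EC-DicerWT mice. EC-Dicerflox replicate 3 lay 1.08 cycles below the next lowest sample. The means were 3.34 ± 0.906 (SD, n = 3) and 3.62 ± 0.209 cycles (SD, n = 3), a difference of -0.278 cycles (two-sided exact permutation p = 1, adjusted 1). Without EC-Dicerflox replicate 3 the difference was 0.244 cycles, and that of miR-29c minus miR-29a was -0.368 cycles.

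**Figure D4:**
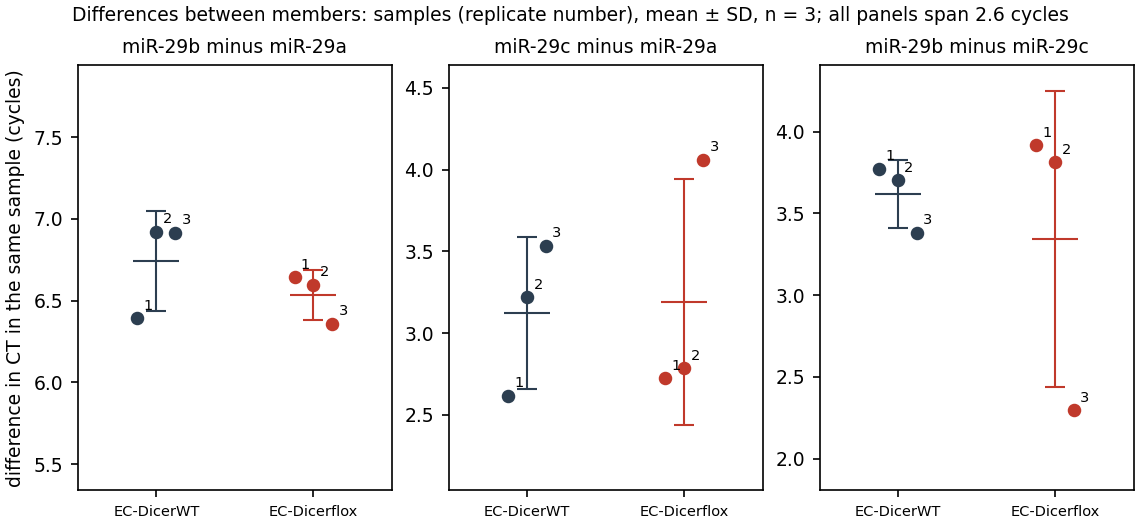
Difference in CT between members in the same sample, in cycles (vertical axis), by group (horizontal axis), with points for samples labelled by replicate number and bars for mean ± SD (n = 3). The gap between miR-29b and miR-29a varies over 0.563 cycles, whereas both gaps that involve miR-29c vary over 1.44 and 1.62 cycles and are most extreme in EC-Dicerflox replicate 3.

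The opposite strand miR-29b* had a CT of 27.3, 27.0 and 29.0 in EC-Dicerflox and of 27.3, 27.1 and 27.7 in EC-DicerWT mice, higher than that of miR-29b in every sample. The limma estimate for miR-29b* was -0.23 on the log2 scale, with a standard error of 0.27 and a p-value of 0.431 (adjusted 0.923), opposite in sign to that of miR-29b. It was -0.094 without EC-Dicerflox replicate 3, -0.14 without EC-DicerWT replicate 3, -0.36 without EC-DicerWT replicate 1, -0.15 with U6 alone and -0.39 with snoRNA202 alone. MiR-29b* minus miR-29b was 1.84, 1.93 and 2.64 cycles in EC-Dicerflox and 1.99, 1.21 and 0.901 cycles in EC-DicerWT mice. The groups overlapped, since EC-DicerWT replicate 1 lay above EC-Dicerflox replicates 1 and 2. The means differed by 0.769 cycles (two-sided exact permutation p = 0.3), a comparison that was added after the values had been seen. By the style of their assay numbers, both strands were taken to be on different cards, and so in separate pre-amplification pools. With control RNAs of the same card the log2 fold changes were 0.48 for miR-29b and -0.18 for miR-29b*.

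The miRNAs most like the family were found by the SD, over the 6 samples, of their CT minus the mean CT of the 3 members, a measure that needs no control RNA. The smallest SDs were those of let-7c (0.10 cycles), miR-497 (0.101), miR-15a* (0.107), miR-30d (0.115) and miR-328 (0.130), against a median of 0.522 cycles for 347 miRNAs. SnoRNA202 had an SD of 0.194 and snoRNA135 of 0.224 cycles, miR-29b* of 0.473 and U6 of 0.561 cycles. The log2 fold changes of these 5 miRNAs were 0.44 for let-7c, 0.35 for miR-497, 0.26 for miR-15a*, 0.32 for miR-30d and 0.41 for miR-328. The SD includes the difference between the groups, so that estimates close to that of the family mean (0.37) follow from this choice. When each group was centred on its own mean, 1 of the 5 (miR-15a*) remained among the 5 nearest, and the others moved to rank 6 (let-7c, SD of 0.106 cycles), 7 (miR-497, 0.112), 8 (miR-30d, 0.123) and 12 (miR-328, 0.144) of 347. MiR-652, with an SD of 0.087 cycles, was the nearest. The 5 nearest after centring had log2 fold changes of -0.15 (miR-652), 0.18 (miR-27a), 0.017 (miR-152), 0.26 (miR-15a*) and -0.077 (miR-20b). MiR-652, miR-27a, miR-152 and miR-20b were named after their values had been seen.

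The members were less like each other than like some other miRNAs. MiR-29a was the 13th nearest of 349 miRNAs to miR-29b (SD of 0.244 cycles), while miR-29b was the 52nd nearest to miR-29a. MiR-29c ranked 198 of 349 by its distance to miR-29a (SD of 0.562 cycles) and 178 by its distance to miR-29b (SD of 0.607 cycles). The nearest miRNA was miR-23b for miR-29a (SD of 0.049 cycles), miR-455 for miR-29b (SD of 0.050 cycles) and miR-101a for miR-29c (SD of 0.199 cycles). These 3 miRNAs were named after their values had been seen. All of these values are descriptions over 6 samples that share the same differences in RNA input.

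Of 12 other miRNAs linked to matrix or fibrosis, 11 had a row in the table, 10 estimates were higher and 1 was lower in EC-Dicerflox mice, and 0 had an unadjusted limma p-value under 0.05. Among all 461 miRNAs tested, 251 estimates were higher and 3.04% had such a p-value. The median log2 fold change was 0.31 for the 11 miRNAs and 0.082 for all 461. MiR-21, known for promoting fibrosis, had an estimate of 0.25 on the log2 scale (standard error 0.24) and miR-30c, a regulator of connective tissue growth factor, of 0.35 (standard error 0.26). The estimates ranged from -0.62 for miR-199a-5p to 0.84 for miR-192, with standard errors of 0.85 and 0.90.

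MiRNAs of the cell types in the aorta were read beside the family. Both endothelial miRNAs had higher estimates in EC-Dicerflox mice (0.41, standard error 0.28, for miR-126-3p and 0.85, standard error 0.38, for miR-126-5p). Their summed level was 1.05 to 1.72 log2 units in EC-Dicerflox and 0.84 to 0.91 in EC-DicerWT mice. Of the 461 single miRNAs, 6.07% were likewise separate with higher values in EC-Dicerflox mice. With U6 alone or snoRNA135 alone the groups overlapped for miR-126-3p, which has the lower CT of the pair. Both smooth muscle miRNAs had estimates of 0.14 (miR-143) and 0.25 (miR-145), with summed levels of 4.30 to 5.56 and 4.23 to 4.83. The CT of miR-145, which makes up most of that sum, ranged over 0.265 cycles in the 6 samples, while the mean CT of U6 and snoRNA135 ranged over 1.52 cycles, so that its level mostly followed the control RNAs. A summed level adds assays with different efficiencies and is not a number of molecules. Of 4 leukocyte miRNAs, 3 had lower estimates, the summed level was -0.89 to -0.23 in EC-Dicerflox and -0.54 to 0.32 in EC-DicerWT mice, and miR-142-5p had the only unadjusted p-value under 0.05 of these lists (0.00989, adjusted p-value 0.923, limma), against 3.04% of all 461 miRNAs. With U6 alone its unadjusted limma p-value was 0.0942. That of miR-126-5p was 0.0727 (adjusted 0.923) with U6 and snoRNA135 and 0.168 with U6 alone. It was 0.0625 with wells without a signal set to missing and 0.0776 without a filter. It was under 0.05 relative to the mean (0.0274) or the median (0.0403) of all miRNAs, without EC-Dicerflox replicate 3 (0.0469) and with trend and robust moderation (0.0326). Relative to the mean or the median, and with that moderation, no miRNA had an adjusted limma p-value under 0.05. Of 6 miRNAs of striated muscle with a row, miR-208b and miR-499 were at a CT of 40 in all samples and miR-1, miR-133a and miR-133b had higher estimates. MiR-208 was at 40 in 3 of 6 samples and had an estimate of 2.02 (standard error 2.46), which was 0.35 when CT values above 35 were set to 35. The summed levels of striated muscle were 0.043 to 0.46 and 0.023 to 0.16. MiR-451 and miR-486 of red blood cells had estimates of 0.21 and -0.22, with summed levels of -2.21 to -1.23 and -2.42 to -0.70. Some of these directions turned, also for miR-133a, miR-143 and miR-145, which the matrix list shares. With snoRNA202 alone the estimates of miR-143 (-0.02) and of miR-133a of striated muscle (-0.03) were below 0. Without EC-Dicerflox replicate 3 those of miR-145 (-0.21) and of miR-223 of leukocytes (-0.16) were below 0, and those of miR-486 (0.011) and of miR-199a-5p of the matrix list (0.0025) were above 0. Estimates of miR-1, miR-150, miR-223, miR-451 and miR-486 also changed sign when other single samples were left out. The part of these cell types in the levels of the miR-29 family was not tested.

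**Figure D5:**
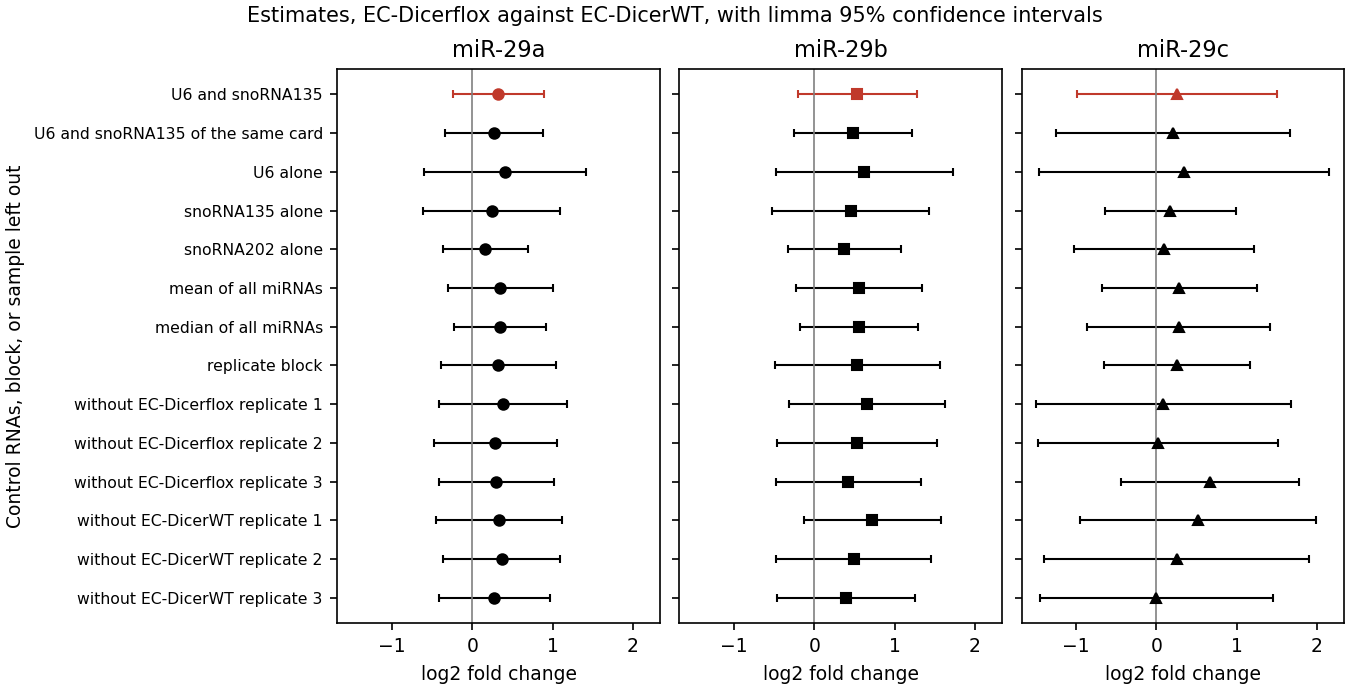
Log2 fold change of miR-29a, miR-29b and miR-29c (horizontal axis, EC-Dicerflox against EC-DicerWT mice) with limma 95% confidence intervals for the control RNAs, the replicate block and each sample left out (vertical axis, U6 and snoRNA135 in red). All estimates shown lie above 0 and all intervals shown include 0, and the estimate of miR-29c moves between 0.0012 and 0.67 with the sample left out.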

How the data were processed

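RNA of 3 EC-Dicerflox and 3 EC-DicerWT aortas, labelled as biological replicates, was analysed on TaqMan MicroRNA cards after reverse transcription and pre-amplification with rodent Megaplex pools. The authors deposited raw CT values, a log2-like scale without normalization, in which wells without a signal are set to 40. Threshold and baseline settings are not given in the sources used here. The 6 columns were assigned by name, and 0 columns were left unused. Of 596 miRNA assays (beside 12 of controls), 335 carry assay numbers of one style and 261 of another. These were taken as 2 cards, with all 3 members on the first.

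Levels were CT values relative to the mean of U6 and snoRNA135. Groups were compared with limma 3.58.1 in R 4.3.3, fitted over the 461 miRNAs that had any sample with a CT below 40, with Benjamini-Hochberg adjustment over all of them, and single values by exact permutation (20 arrangements) in SciPy 1.17.1. The fit was tested on simulated data with independent noise and with control RNAs held constant over the samples. That test therefore does not cover shifts of the control RNAs or of a whole sample. Precision rests on 3 arrays per group. Alternatives were other control RNAs, limits, filters and moderation, the replicate block and leaving out each sample.

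The comparisons are unpaired, with the replicate number as a block as the alternative. The numbers were taken to pair the samples in that fit, since the correlation of their deviations from the group means over 350 miRNAs was 0.150, 0.224 and 0.431 for numbers 1, 2 and 3, each above 0.1. Of the 6 combinations of unlike numbers, EC-Dicerflox 1 with EC-DicerWT 2 (0.285) and EC-Dicerflox 2 with EC-DicerWT 1 (0.117) were also above 0.1, and the other 4 were negative, so that replicates 1 and 2 were not distinguished by number and replicate 3 stood apart. Neither source names a shared litter or day.

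Named miRNAs are the members, the star strand, the control RNAs, the 5 miRNAs most like the family, a matrix list and cell type lists. MiR-181b, miR-206 and miR-144 of these lists matched no row. Members and lists were chosen with earlier results of these data known.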

Additional observations from a re-analysis of the deposited data

How the results depend on the processing

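The log2 fold changes of miR-29a, miR-29b and miR-29c were above 0 in each of 13 alternatives and of 6 fits that left out 1 sample, and 0 had an adjusted p-value under 0.05 (lowest 0.767 over the alternatives and 0.834 with a sample left out). The 13 alternatives put miR-29a between 0.16 and 0.41, miR-29b between 0.38 and 0.62 and miR-29c between 0.097 and 0.34, lowest with snoRNA202 alone and highest with U6 alone in each case. Over the fits that left out a sample they ranged from 0.27 to 0.39, from 0.40 to 0.72 and from 0.0012 to 0.67, and the family mean (0.37) ranged from 0.22 without EC-DicerWT replicate 3 to 0.53 (0.21 with snoRNA202 alone). The replicate block changed no call of a member and gave unadjusted p-values of 0.258, 0.203 and 0.446. The ordinary linear model for miR-29a was the one alternative with an unadjusted p-value under 0.05. The difference of miR-29c minus miR-29a (0.0673 cycles) turned to -0.368 without EC-Dicerflox replicate 3 and to -0.186 without EC-DicerWT replicate 1 and reached 0.300 at most. That of miR-29b minus miR-29c turned to 0.244 without EC-Dicerflox replicate 3 and was -0.565 at the lowest. With the replicate block these differences kept their values, and an exact sign-flip test of 3 pairs cannot go below 0.25.

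Over all miRNAs, 9 were lower and 5 higher at an unadjusted p-value under 0.05 (64.3% lower). With snoRNA202 alone 14 were lower (77.8% lower), with U6 alone 3 were higher, with the ordinary linear model 14 were higher (41.7% lower), and with trend and robust moderation 8 were higher. Relative to the mean over all miRNAs there were 7 lower and 7 higher (50%). With a sample left out, 7 to 12 were lower and 4 to 10 higher (10 without EC-Dicerflox replicate 1, 8 without replicate 2 and 9 without replicate 3), and 2 miRNAs without EC-Dicerflox replicate 1 and 1 without EC-Dicerflox replicate 3 had an adjusted p-value under 0.05. The 350 miRNAs detected in all samples had a median of 0.19 with U6 alone and of -0.058 with snoRNA202. Of the 5 miRNAs most like the family, 1 was shared after centring on the group means, and the other 4 were at rank 6, 7, 8 and 12. The cause of these shifts was not tested. CT values of the members, all under 27, were measured below the limit of 40, and each group holds 3 arrays.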
